A study of Arabidopsis thaliana with 12 samples.

Results

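The genes described here are 5 nuclear genes of *Arabidopsis thaliana* for ribosomal proteins of the bacterial type: AT1G64510, AT3G13120, AT3G54210, AT1G29070 and AT1G24240. They were chosen by locus, as the probes that the platform annotation assigns to exactly 1 gene with that locus, which gave 5 probes, 1 per gene, among 3439 on the array. Probe numbers were 1284 for AT1G64510, 1011 for AT3G13120, 1739 for AT3G54210, 511 for AT1G29070 and 2594 for AT1G24240. RNA was compared between 6 wild-type (WT) samples and 6 samples of the *psae1* mutant, which lacks subunit PSI-E1 of photosystem I, all of the Columbia 0 ecotype and numbered 1 to 6 in each genotype. The labels name no treatment or further allele, and the tissue, plant age and kind of mutation were not given in the sources used here. PSAE1, the mutated gene, was not analysed here, and no check of the labels against it was made. AT1G24240 had been among the largest rises in earlier results of these data, so its inclusion is not independent of its difference.

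Plastids translate their own genes, among them those of many photosystem subunits, on a ribosome related to that of bacteria. Most proteins of this ribosome are encoded in the nucleus, made in the cytosol and imported, so its assembly depends on the expression of both genomes. The small subunit decodes the messenger RNA and the large subunit joins the amino acids. AT1G64510 encodes a protein of the S6 family and AT3G13120 one of the S10 family, both of the small subunit. AT3G54210 encodes a protein of the L17 family, which in bacteria lies at the exit of the peptide tunnel. AT1G29070 encodes a protein of the L34 family, a small protein that in bacteria binds ribosomal RNA of the large subunit, and AT1G24240 one of the L19 family, which in bacteria lies between the subunits. AT1G24240 is not on the list of plastid ribosomal protein genes used here, which places L19 at other loci, and no source used here gives the organelle its product serves.

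Of the 5 genes, 4 were higher and 1 was lower in *psae1* by their mean, and 3 passed the test as higher when the 12 samples were taken as separate. The test was limma, two-sided, on log2 intensity relative to the median of each sample, with Benjamini-Hochberg adjustment over 3279 tested probes and a threshold of 0.05. All 5 members were above 0 in all 12 samples and were tested. In that fit 11.9% of tested probes were higher and 10.9% lower in *psae1*, beside 3 higher and 0 lower of the 5. The median difference of the members was 0.33 on the log2 scale, against 0.01 over all tested probes. Without AT1G24240, whose inclusion was not independent of its rise, 2 of 4 were higher and the median was 0.30. The other 4 were also chosen with earlier results of these data known, so these counts are not independent of those results. Within a genotype, sample 1 deviated with 2, 3 with 4 and 5 with 6 over the whole array, so they may not be separate. The difference of each member is therefore also given with these numbers averaged, which leaves 3 values per genotype. With averaged numbers 0 of the 5 members passed in limma, where 2.32% of tested probes did, and 2 of 5 had an unadjusted p under 0.05, where 18.2% of tested probes did. With averages compared within the same pair of numbers 1 passed, AT1G24240, where 3.57% of tested probes were higher.

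**Figure D1:**
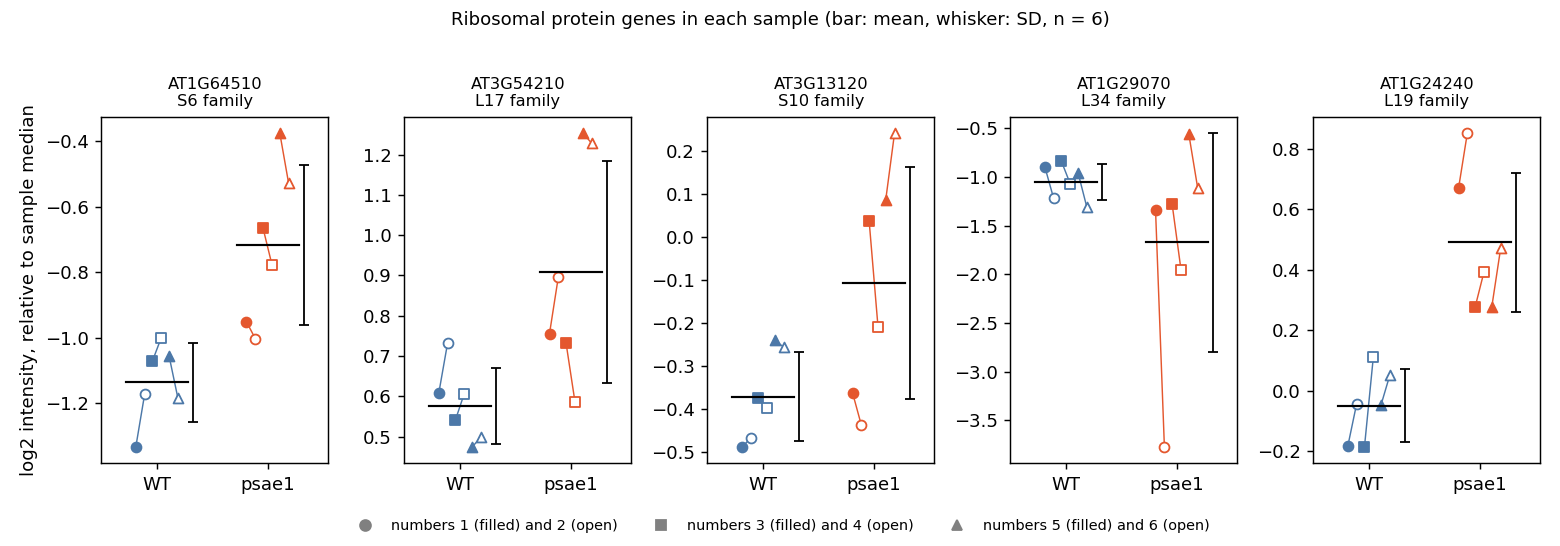
Log2 intensity relative to the sample median (vertical axis, scaled for each gene) for the 5 genes in 6 WT and 6 *psae1* samples, with numbers 1 and 2, 3 and 4, and 5 and 6 joined by lines. Horizontal bars are means and whiskers SDs (n = 6), and AT1G24240 is the gene whose *psae1* samples all lie above all WT samples.

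AT1G24240, of the L19 family, had the smallest adjusted p of the 5 in the fit of 12 samples. Its deposited intensity in WT lay between 0.535 and 0.667, with a median of 0.589, and in *psae1* between 0.599 and 0.949, with a median of 0.687. *psae1* 1 and 2 were the highest, at 0.832 and 0.949, and on the deposited scale 4 of 6 *psae1* samples lay above every WT sample. Relative to the sample median, all 6 *psae1* samples, from 0.28 to 0.85, lay above all 6 WT samples, from −0.19 to 0.11. Among probes above 0 in all samples, 6.75% had such a separation upwards. AT1G24240 rose in *psae1* by 0.54 ± 0.10 in log2 units (SE, n = 6 for each genotype; limma adjusted p = 0.0021), or 1.45-fold, and was higher in 6 of 6 same-numbered comparisons. An exact two-sided permutation test that took the 12 samples as separate gave p = 0.0022, the smallest it can give for 6 against 6. With 3 averages against 3 such a test cannot go below 0.10, which is what it gave for AT1G24240 and AT1G64510. The difference was 0.87 in numbers 1 and 2, and 0.37 in both 3 and 4 and 5 and 6. With averaged numbers it was 0.54 ± 0.14 (SE, n = 3) and missed the threshold (limma adjusted p = 0.071), with a 95% interval from 0.24 to 0.84. Averages compared within pairs of numbers passed (limma adjusted p = 0.042), and a random block for the pairs did not (limma adjusted p = 0.061).

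A second probe, number 3196, is assigned to AT1G24240 together with AT5G11750 and AT4G11630, so its signal cannot be given to 1 gene. WT samples had a mean intensity of 0.687 ± 0.044 and *psae1* samples one of 0.596 ± 0.047 (SD, n = 6 each). Relative to the sample median it differed by 0.04 ± 0.07 (SE, limma adjusted p = 0.68), so the shared probe did not show the height of the single-gene probe.

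AT1G64510, of the S6 family, was a dim probe, at a level percentile of 17.7 among the tested probes. Its WT intensities ran from 0.241 to 0.309, with a median of 0.281, and those of *psae1* from 0.262 to 0.382, with a median of 0.314. The highest readings were those of *psae1* 5 and 6, at 0.382 and 0.344, and the groups overlapped. Relative to the sample median, 5 of 6 *psae1* samples lay above every WT sample, and *psae1* 2 lay just below WT 4. AT1G64510 was higher in *psae1* by 0.42 ± 0.10 in log2 units (SE, n = 6 for each genotype; limma adjusted p = 0.012), or 1.34-fold, and in 6 of 6 same-numbered comparisons. The exact two-sided permutation test gave p = 0.0043. The difference was 0.28 in numbers 1 and 2, 0.31 in 3 and 4 and 0.67 in 5 and 6. With averaged numbers it was 0.42 ± 0.15 (SE, n = 3) and did not pass (limma adjusted p = 0.160), with a 95% interval from 0.09 to 0.75. Without numbers 5 and 6 it was 0.30 and did not pass either (limma adjusted p = 0.064).

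AT3G13120, of the S10 family, did not pass. Its WT intensities ran from 0.433 to 0.512, with a median of 0.471, and those of *psae1* from 0.388 to 0.587, with a median of 0.489, so the *psae1* range enclosed that of WT. Relative to the sample median, 4 of 6 *psae1* samples lay above every WT sample, while *psae1* 1 and 2 lay within the WT range. The difference was 0.26 ± 0.11 in log2 units (SE, n = 6 for each genotype; limma adjusted p = 0.0999), with a 95% interval from 0.03 to 0.50. The exact two-sided permutation test gave p = 0.056. By pairs of numbers it was 0.08, 0.30 and 0.41, all above 0. With averaged numbers it was 0.26 ± 0.15 (SE, n = 3) and did not pass (limma adjusted p = 0.39), with a 95% interval from −0.08 to 0.60. Without *psae1* 2 it was 0.33 and passed (limma adjusted p = 0.039). With the replicate number as a block it also passed (limma adjusted p = 0.028), and with averages compared within pairs of numbers it did not (limma adjusted p = 0.23).

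AT3G54210, of the L17 family, differed mainly in 1 pair of numbers. Its WT intensities ran from 0.839 to 1.02, with a median of 0.908, and those of *psae1* from 0.785 to 1.18, with a median of 0.931. *psae1* 5 and 6 read 1.18 and 1.16, whereas *psae1* 1 to 4 read from 0.785 to 0.979, within or below the WT range. Relative to the sample median, 4 of 6 *psae1* samples, numbers 1, 2, 5 and 6, lay above every WT sample. The difference was 0.33 ± 0.11 in log2 units (SE, n = 6 for each genotype; limma adjusted p = 0.044), or 1.26-fold, and 5 of 6 same-numbered comparisons were higher. The exact two-sided permutation test gave p = 0.015. By pairs of numbers the difference was 0.16, 0.08 and 0.76, and without numbers 5 and 6 it was 0.12 (limma adjusted p = 0.31). It did not pass with averaged numbers (limma adjusted p = 0.29) or with the replicate number as a block (limma adjusted p = 0.060). Leaving out any 1 of WT 1, 3, 4, 5 or 6 or of *psae1* 2, 5 or 6 also ended its call, with differences from 0.26 to 0.40 over all 12 omissions and a limma adjusted p of at most 0.090.

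The 40 tested probes nearest to AT3G54210 by probe number had a median difference of 0.15, with 5 of 40 below 0. Across the 12 samples, deviations of AT3G54210 from the genotype mean had an r of 0.93 with the median deviation of these 40 probes, a description over samples that share pairs. The corresponding r was 0.77 for AT1G64510, 0.65 for AT3G13120, 0.62 for AT1G29070 and 0.44 for AT1G24240. With drift along the probe numbers removed, AT3G54210 was at 0.17 and did not pass (limma adjusted p = 0.11). AT1G64510 was then at 0.36 and AT1G24240 at 0.54, and both passed (limma adjusted p = 0.0039 and 0.0013).

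**Figure D2:**
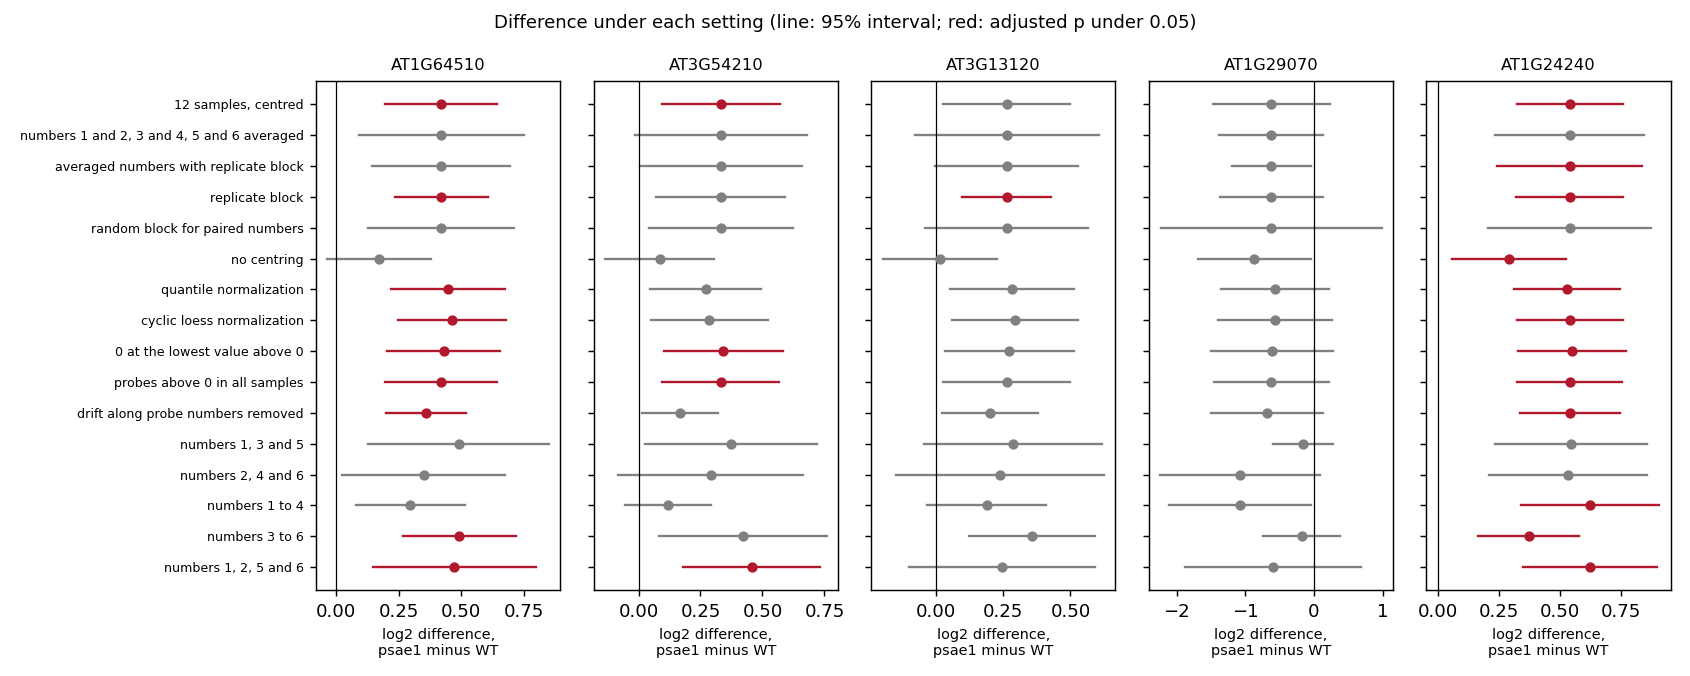
Log2 difference of *psae1* minus WT (horizontal axes, scaled for each gene) with its 95% interval for the 5 genes under 16 settings, drawn in red where the adjusted p was under 0.05. AT1G24240 kept its interval above 0 in all 16, and AT1G29070 had its point below 0 in all 16 with no adjusted p under 0.05.

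AT1G29070, of the L34 family, stood apart from the other 4. Its intensity in WT ran from 0.240 to 0.342, with a median of 0.303. In *psae1* it read 0.207, 0.038, 0.211, 0.135, 0.336 and 0.230 in samples 1 to 6. *psae1* 2 was thus far below the rest, and *psae1* 1, 3 and 4 were also below every WT sample on this scale. *psae1* 6 lay just under the lowest WT sample and *psae1* 5 lay within the WT range. Relative to the sample median, *psae1* 1, 2 and 4 lay below every WT sample, *psae1* 3 and 6 within the WT range and *psae1* 5 above it. The difference relative to the sample median was −0.62 ± 0.40 in log2 units (SE, n = 6 for each genotype; limma adjusted p = 0.27), with a 95% interval from −1.47 to 0.23. The exact two-sided permutation test gave p = 0.21. By pairs of numbers it was −1.50, −0.66 and 0.30, so the sign differed between numbers 5 and 6 and the others. With averaged numbers it did not pass (limma adjusted p = 0.36). The gap between *psae1* 2 and its nearest neighbour was 0.566 of the range of the 6 *psae1* values, below Dixon's critical value for 6 values, and without *psae1* 2 the difference was −0.20.

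The SD of AT1G29070 over the 6 *psae1* samples was 1.13 on the log2 scale, at the 99.4th percentile of tested probes, against 0.19 in WT, at the 76.1st percentile. Over all tested probes the median SD was 0.17 in *psae1* and 0.13 in WT. The other 4 genes had SDs of 0.23 to 0.28 in *psae1* and 0.09 to 0.12 in WT. In all 6 pairs of numbers the odd number of AT1G29070 read above the even number, by 0.23 to 0.36 on the log2 scale in WT and by 0.55 to 2.44 in *psae1*. AT1G24240 showed the opposite order in all 6 pairs, with the even number above the odd by 0.10 to 0.30. Over the probes above 0 in all samples, 7.49% had the odd number higher in all 6 pairs and 6.26% the even number, and the median size of a difference within a pair was 0.09.

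The difference between genotypes was −0.16 in numbers 1, 3 and 5 and −1.08 in numbers 2, 4 and 6 for AT1G29070. This gap of 0.92 between odd and even numbers ranked 11 among 3257 probes, and 0.338% of probes had a gap as large. The other 4 members had gaps from 0.01 to 0.14. AT1G29070 lay at a level percentile of 9.6, and of 308 probes in the dimmest 10% for which the gap could be computed, 8 had one as large.

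**Figure D3:**
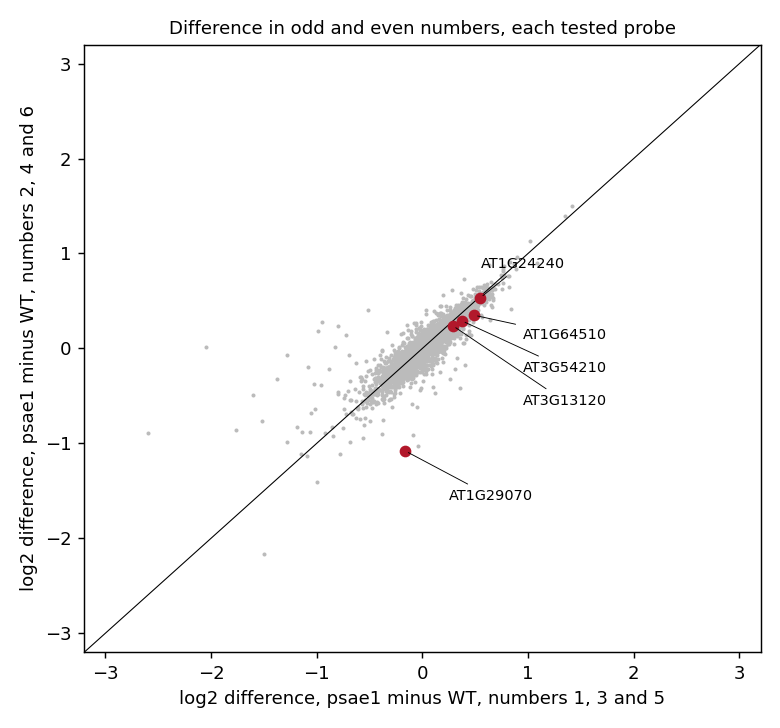
Log2 difference of *psae1* minus WT in numbers 1, 3 and 5 (horizontal axis) and in numbers 2, 4 and 6 (vertical axis). There is 1 point per tested probe for which both could be computed, with the 5 genes in red and the line of equality drawn. AT1G29070, at −0.16 and −1.08, lies away from the line, and the other 4 lie close to it.

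The 3 probes numbered 511 to 513 in the table, of which AT1G29070 is the first, had the same samples low. Probe 513, with no gene listed, read from 0.230 to 0.259 in WT, from 0.047 to 0.096 in *psae1* 1 to 4, and 0.252 and 0.222 in *psae1* 5 and 6. Probe 512, with several genes listed, read from 0.141 to 0.204 in WT, was listed at 0 in *psae1* 2 and 4, read 0.035 and 0.113 in *psae1* 1 and 3, and read 0.227 and 0.119 in *psae1* 5 and 6. As deposited, all of these probes were thus near WT levels in *psae1* 5 and 6, and *psae1* 1 to 4 lay below every WT sample in each of them. The next probe, 514, was among the brightest, with a mean of 26.6 ± 2.82 over the WT samples and 35.7 ± 13.8 over the *psae1* samples (SD, n = 6 each). It read 53.6 and 53.3 in *psae1* 5 and 6, and from 25.9 to 29.4 in *psae1* 1 to 4. Further on, probe 516 was listed at 0 in *psae1* 1 and 2. Relative to the sample median, probe 516 was at −2.95 and −9.30 in *psae1* 3 and 4. It was at −2.13 and −2.24 in *psae1* 5 and 6, and from −2.85 to −1.58 in WT. The 40 tested probes nearest to AT1G29070 by probe number had a median difference of 0.12, with 6 called higher and 0 lower. No source used here gives the array layout, and the part of these neighbours in the values of AT1G29070 was not tested.

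**Figure D4:**
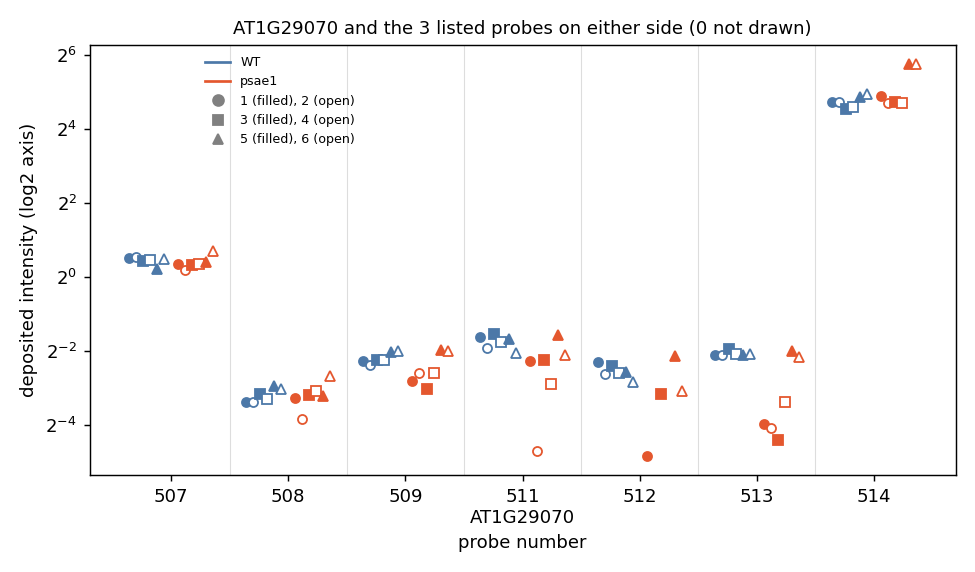
Deposited intensity (vertical axis, log2 scale) of AT1G29070, probe 511, and of the 3 probes next in the table on either side (horizontal axis), with 6 WT and 6 *psae1* samples as points and values of 0 not drawn. In probes 509 and 511 to 513 the deposited values of *psae1* 5 and 6 lie near the WT samples. Those drawn for *psae1* 1 to 4 lie below all WT samples in these probes. Relative to the sample median, *psae1* 4 lay within the WT range in probe 509 and *psae1* 3 in probe 511.

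Differences tended to be more positive for brighter probes, so each member was set beside its own decile of tested probes by level. The median difference was −0.04 in the decile that held AT1G64510, 0.03 in that of AT3G54210, −0.02 in that of AT3G13120, −0.09 in that of AT1G29070 and 0.04 in that of AT1G24240. In the decile of AT1G64510, 19 of 328 probes were higher and 52 lower, and in that of AT1G24240 27 of 328 were higher and 26 lower. These deciles describe the array at each level, and signal of different probes cannot be read as relative amounts of transcript.

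**Figure D5:**
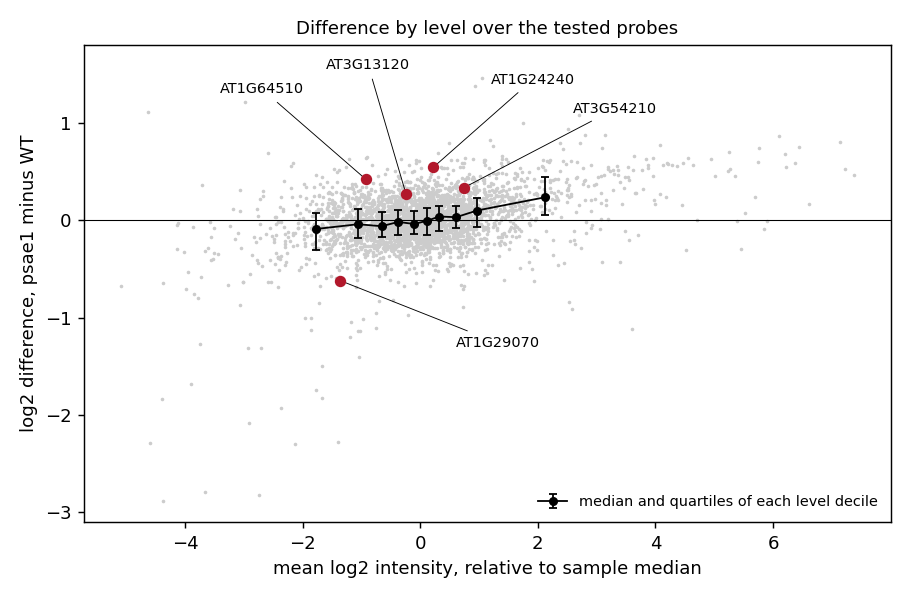
Log2 difference of *psae1* minus WT (vertical axis) against mean log2 intensity relative to the sample median (horizontal axis), 1 grey point per tested probe, with the median and quartiles of each level decile in black and the 5 genes in red. The medians run from −0.09 in the dimmest decile to 0.23 in the brightest. AT1G24240, at 0.54, AT1G64510, AT3G54210 and AT3G13120 each lie above the quartiles of their decile, and AT1G29070 lies below those of its own.

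All these differences are relative to the sample median, and as deposited the mean of these medians differed by −0.25 in log2 units, *psae1* minus WT. On the deposited scale AT1G24240 differed by 0.29 (limma adjusted p = 0.035), or 1.22-fold. AT1G64510 was then at 0.17, AT3G54210 at 0.08 and AT3G13120 at 0.02, and none of these 3 passed (limma adjusted p = 0.145, 0.50 and 0.90). AT1G29070 was at −0.87 and did not pass (limma adjusted p = 0.071). Without centring 3.39% of tested probes were higher and 49.8% lower. In RNA from whole samples, fewer cells of a type and less RNA per cell cannot be told apart.

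Among the 4 genes on the plastid ribosome list, r over the 6 *psae1* samples was above 0 for all 6 pairs of genes, while each had r below 0 with AT1G24240. It was 0.91 between AT1G64510 and AT3G13120, 0.77 between AT1G64510 and AT1G29070, 0.68 between AT1G64510 and AT3G54210, and lowest, at 0.36, between AT3G54210 and AT1G29070. With AT1G24240, r was −0.81 for AT1G64510, −0.76 for AT3G13120, −0.78 for AT1G29070 and −0.13 for AT3G54210. In *psae1*, AT1G64510, AT3G54210, AT3G13120 and AT1G29070 were highest in numbers 5 and 6 and AT1G24240 in numbers 1 and 2. Over the 6 WT samples the order was not the same, with r of 0.45 between AT1G64510 and AT3G13120 and −0.86 between AT3G54210 and AT3G13120. The other pairs of genes on the list were near or below 0 in WT. AT1G64510 had r of −0.26 with AT3G54210 and 0.06 with AT1G29070. AT1G29070 had r of −0.22 with AT3G54210 and −0.20 with AT3G13120. In WT, r with AT1G24240 was 0.48 for AT1G64510, 0.37 for AT3G13120, −0.03 for AT3G54210 and −0.72 for AT1G29070. The values below 0 with AT1G24240 in *psae1* were thus not found for all of these genes in WT. With deviations from the genotype means of all 12 samples, 6 of 10 pairs of genes had r above 0, from −0.74 to 0.84 with a median of 0.38. These values describe the samples, which share pairs of numbers and a genotype mean, and are not a test of joint regulation.

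The plastid ribosome list held 41 genes, of which 6 had a single-gene probe and 5 could be tested, 4 of them members. The other was AT4G01310, for the plastid L5 protein of the large subunit. WT intensities lay between 0.587 and 0.649 and *psae1* intensities between 0.554 and 0.659, so the *psae1* range enclosed that of WT. Relative to the sample median it was higher by 0.22 ± 0.06 in log2 units (SE, n = 6 for each genotype; limma adjusted p = 0.025), with 0.07, 0.30 and 0.28 in the 3 pairs of numbers. With averaged numbers it did not pass (limma adjusted p = 0.33), and on the deposited scale it was at −0.03. AT5G65220, for the plastid L29 protein, was listed at 0 in all 12 samples, so it was not tested. Of the 5 tested genes on the list 3 passed as higher and 0 as lower with 12 samples, and 0 passed with averaged numbers, where 1 had an unadjusted p under 0.05. Over all tested probes the shares were 11.9% higher with 12 samples and 18.2% at an unadjusted p under 0.05 with averaged numbers. The list, too, was chosen with earlier results of these data known. A list of 17 genes for plastid translation factors and ribosome assembly had 0 single-gene probes, and 0 cytosolic or other ribosomal protein genes could be found by name, so no comparison with other ribosomes was made.

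The single-gene probes whose 12 values were most like those of each member were chosen by the highest Pearson r among 649 candidates, so their r is a description. For AT1G24240 they were AT4G33540 (r = 0.97) and CYN, the cyanase gene (r = 0.90). For AT1G64510 they were AT2G37750 and AT2G33180, both with r = 0.93. For AT3G54210 they were AT1G01080 (r = 0.98) and AT5G55580 (r = 0.96), and for AT3G13120 they were ATSIK and AT5G58410 (r = 0.90 each). AT1G29070 had no pattern as close, with AT2G31800 at r = 0.80 and AT5G50350 at r = 0.78. The nearest of these 10 probes lay 287 probe numbers from its member.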

How the data were processed

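The authors deposited a linear intensity for 3439 probes in 12 samples. Background, scaling, scanner and layout were not given in the sources used here. From the values, a sample summed to between 3611 and 3678 for WT and to between 3436 and 3564 for *psae1*. The number of arrays limits the precision. Intensities were converted to log2, with 0 as missing, and centred on each sample's median. Probes with at least 3 values per genotype were fitted with limma 3.58.1 in R 4.3.3 (lmFit, eBayes). A run on simulated data checked that planted differences were recovered, and set no condition on wrong calls. Averages and exact tests used the same centred values. Drift was a running median over 101 probes. Figures used matplotlib 3.10.9 in Python 3.11.15. Gene names came from the platform annotation (692 probes of 1 gene, 870 of several, 1877 unlisted) and a TAIR10.1 gene table. The members and lists were chosen with earlier results of these data known. Named genes were the members, tested list genes, neighbours by probe number, and the 2 most alike single-gene probes per member.

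No label states that the replicates were separate plants or cultures, so the p-values cover only the variation among these samples, possibly technical. Over 3257 probes, deviations from the genotype mean had r of 0.33 to 0.61 within a genotype between number 1 and number 2, 3 and 4, or 5 and 6. Between the genotypes equal numbers had r of 0.23 to 0.42, though no label pairs them. Values for unequal numbers are not given, so these r cannot show that equal numbers belong together. The main fit had no block.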

Additional observations from a re-analysis of the deposited data

How the results depend on the processing

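Numbers 3 to 6, and numbers 1, 2, 5 and 6, were added as alternatives after seeing the data. Of 15 alternatives to the fit of 12 samples, AT1G64510 passed in 8, AT3G54210 in 3, AT3G13120 in 1, AT1G29070 in 0 and AT1G24240 in 11, and none of the 5 changed sign. Averaging numbers left AT1G64510 at 0.42, AT3G54210 at 0.33 and AT1G24240 at 0.54 without a pass, as did a random block for the pairs (consensus correlation 0.71). With the replicate block, AT3G54210, at 0.33, lost its call and AT3G13120, at 0.26, gained one. Averages with the replicate block left AT1G64510 at 0.42 and AT3G54210 at 0.33 without a pass. As deposited, AT1G64510 (0.17) and AT3G54210 (0.085) did not pass. AT3G54210 also missed the threshold with quantile (0.27) and cyclic loess (0.29) normalization, with drift removed (0.17) and in numbers 3 to 6 (0.42). In numbers 1 to 4 AT1G64510 was at 0.30 and AT3G54210 at 0.12. In numbers 1, 3 and 5 AT1G64510 was at 0.49, AT3G54210 at 0.37 and AT1G24240 at 0.55, and in numbers 2, 4 and 6 at 0.35, 0.29 and 0.53, with none past the threshold. Leaving out 1 sample gave 0.35 to 0.48 for AT1G64510, 0.26 to 0.40 for AT3G54210 with 8 of 12 calls lost, 0.19 to 0.33 for AT3G13120 with 1 gained, −0.84 to −0.20 for AT1G29070, and 0.47 to 0.58 for AT1G24240.

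The fit of 12 samples called 748 probes, 391 higher and 357 lower, with 3 members higher. Averages called 76, 38 higher and 38 lower, with 0 members. Averages with the replicate block called 206, 117 higher and 89 lower, with 1 member. The random block called 189, 135 higher and 54 lower, with 0 members. Without centring 1745 were called, 111 higher and 1634 lower, with 1 member. Numbers 1, 3 and 5 gave 43, 22 higher and 21 lower, and numbers 2, 4 and 6 gave 33, 17 higher and 16 lower, each with 0 members. Numbers 3 to 6 gave 393, 226 higher and 167 lower. Numbers 1 to 4 called 1 member, and quantile normalization called 243 probes higher. Leaving out the centring lowers alike the differences of all probes above 0 in all samples, and the subsets hold fewer samples. Otherwise the cause was not tested. Of the 5 members 0 were called lower in any alternative run.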
